A study of Mus musculus with 155 samples.

Results

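The genes described here are 10 markers of astrocytes and radial glia, namely Gfap, Aqp4, S100b, Slc1a3, Slc1a2, Aldh1l1, Gja1, Fabp7, Sparcl1 and Glul. They were chosen by name and found by their Ensembl identifiers among the 55471 genes of the RNA-seq count tables, and all 10 were found. The cells were KH2 mouse ESCs with an extra, Dox-inducible copy of H3.3 fused to SNAP and HA tags, either WT-H3.3 or the mutants H3.3K27M and H3.3K27L, so the WT-H3.3 cells carried the transgene and received Dox as well. The main comparison was between ES-derived oligodendrocyte progenitor cells (OPCs) of the H3.3K27M and WT-H3.3 lines, each with 1 library at 24 h and 1 at 72 h of Dox. For context, 6 libraries of RA-treated cells, called neural progenitors in the study, and 32 libraries of undifferentiated ESCs were used. The RA-treated libraries were of the WT-H3.3 line and both mutant lines, each with 1 library at 24 h and 1 at 72 h of Dox. The ESC libraries were of the 3 lines and of WT-H3.3 cells with the EZH2 inhibitor GSK343. Each of these groups had 2 replicates at 4, 8, 24 and 72 h of Dox. OPCs were made through embryoid bodies treated with RA and purmorphamine and then kept in OPC medium, with no sorting step given in the methods, and each H3.3 form is 1 line. H3.3 form, cell line and differentiation run cannot be told apart. The methods describe biological replicates as repeats made some weeks from each other. Whether this holds for the OPC and RA-treated libraries, with 1 for each line and Dox time, is not given. In a fit with a mean per line, p-values measure the spread between the 24 and 72 h libraries of a line. This spread includes any effect of Dox time and may otherwise be technical. The deposited columns number both OPC time points of a line as replicate 2, while the sample titles number the 72 h library as replicate 1. Libraries are therefore named here by line and Dox time.

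Radial glia are the neural stem cells of the developing brain and give rise to neurons, oligodendrocyte lineage cells and astrocytes. Fabp7 (a brain fatty acid binding protein) and Slc1a3 (the glutamate transporter GLAST) are expressed from the radial glia stage onwards, as are Gja1 (connexin 43) and Sparcl1 (hevin, a secreted matrix protein). Glul (glutamine synthetase) and Slc1a2 (the glutamate transporter GLT-1) clear glutamate in astrocytes. Gfap (an intermediate filament), Aqp4 (a water channel of astrocyte endfeet), Aldh1l1 (a folate enzyme) and S100b (a calcium binding protein) are later astrocyte markers. Several of these genes are not restricted to astrocytes, since OPCs can express Fabp7, S100b and Slc1a3, and Gja1 and Glul are widely expressed.

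In H3.3K27M OPCs the markers split into groups. Gfap was almost lost, Aqp4 and Aldh1l1 fell, Slc1a2 rose, Slc1a3 and S100b were higher by less than 2-fold, and Fabp7, Gja1, Sparcl1 and Glul were not called. All 10 genes passed the filter on low counts, Gfap only through the WT-H3.3 libraries. Calls required a fold change above 2 or below 0.5 together with a Benjamini-Hochberg adjusted p-value under 0.05 in edgeR's quasi-likelihood test, adjusted over all genes tested. By this rule 3 of the 10 markers were lower and 1 was higher in H3.3K27M OPCs. Having passed the filter only through the line where it is high, Gfap had to differ, and its place in this count is a description. The 2 lines differed widely, and 27.9% of the 12467 genes tested were called, 15% lower and 12.9% higher, so that 4 of 10 is not far above the share among all genes. The median log2 fold change was 0.08 over the 10 markers and 0.00 over all genes tested. Levels are given as CPM, the counts-per-million scale with library sizes adjusted by TMM within a table. In bulk RNA, fewer cells of a type and less RNA per cell cannot be told apart.

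**Figure D1:**
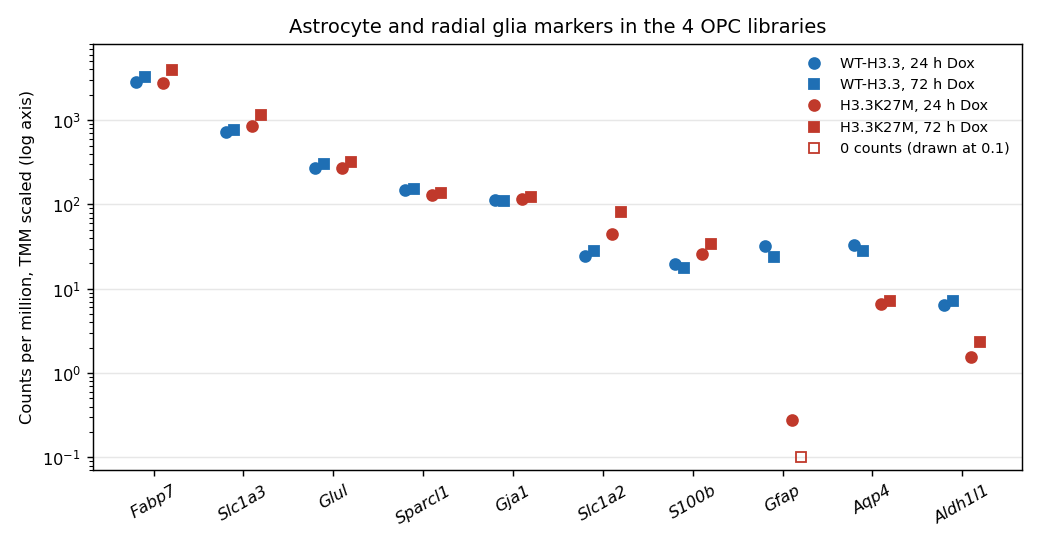
Level of each marker in the 4 OPC libraries, in CPM scaled by TMM on a log axis, with WT-H3.3 in blue and H3.3K27M in red. Circles are libraries of 24 h of Dox and squares of 72 h, and the open square is a library with 0 counts of Gfap. Gfap, Aqp4 and Aldh1l1 were lower in both H3.3K27M libraries, while Fabp7 lay between 2739 and 3981 CPM in all 4 libraries.

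On mm9 (NCBIM37), 3 of the called markers lie at chr11:102748650-102762226 on the minus strand (Gfap), chr6:90436421-90550197 on the plus strand (Aldh1l1) and chr2:102498816-102630941 on the plus strand (Slc1a2). The most abundant marker, Fabp7, lies at chr10:57504687-57508256 on the plus strand. Gfap and Aldh1l1 fell together, Slc1a2 rose and Fabp7 was not called, and the promoters of these 4 genes are shown for this contrast. They are windows of 250 bases before to 50 bases after a RefSeq start of each gene on GRCm38.p6, read along the strand of the gene. Their places are chr11:102897151-102897450 (Gfap), chr6:90550543-90550842 (Aldh1l1), chr2:102706188-102706487 (Slc1a2) and chr10:57784673-57784972 (Fabp7). These starts were not matched to the mm9 spans above, so that a window need not lie at the end of its span. Windows of 8 of the 10 markers were used, and none of Aqp4 or Sparcl1 was examined. Capitals mark matches, on either strand, to motifs of factors with known roles in glia: the STAT motif TTCCNGGAA, the NFI motif TTGGC and its paired palindromic form (which contains TTGGC), the RBPJ motif GTGGGAA, the SOX motif ACAAAG and the E-box CAGCTG.
Gfap: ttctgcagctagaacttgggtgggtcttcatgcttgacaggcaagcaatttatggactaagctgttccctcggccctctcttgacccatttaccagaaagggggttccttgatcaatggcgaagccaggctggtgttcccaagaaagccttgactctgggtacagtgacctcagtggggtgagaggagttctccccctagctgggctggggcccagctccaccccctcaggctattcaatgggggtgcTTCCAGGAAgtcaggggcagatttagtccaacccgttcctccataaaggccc
Aldh1l1: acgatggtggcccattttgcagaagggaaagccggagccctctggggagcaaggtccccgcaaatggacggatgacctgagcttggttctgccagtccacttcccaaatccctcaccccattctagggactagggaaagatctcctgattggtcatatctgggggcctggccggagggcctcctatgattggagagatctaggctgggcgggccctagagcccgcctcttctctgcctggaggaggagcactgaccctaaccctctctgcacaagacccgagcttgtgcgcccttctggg
Slc1a2: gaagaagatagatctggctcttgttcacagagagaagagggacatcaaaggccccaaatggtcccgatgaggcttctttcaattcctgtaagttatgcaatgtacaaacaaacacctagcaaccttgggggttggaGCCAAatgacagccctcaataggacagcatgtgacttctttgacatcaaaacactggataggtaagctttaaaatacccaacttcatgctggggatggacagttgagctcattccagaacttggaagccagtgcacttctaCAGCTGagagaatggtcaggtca
Fabp7: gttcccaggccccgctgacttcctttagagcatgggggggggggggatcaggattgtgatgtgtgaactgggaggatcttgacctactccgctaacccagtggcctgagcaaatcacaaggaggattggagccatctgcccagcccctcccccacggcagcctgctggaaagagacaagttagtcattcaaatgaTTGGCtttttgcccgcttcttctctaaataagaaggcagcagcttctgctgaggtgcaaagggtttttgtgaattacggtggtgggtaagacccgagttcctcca
The Gfap window held 1 match to the STAT motif, from 2 bases before the start, a motif found in 1.15% of the 32851 mouse promoters of this length. The Aldh1l1 window held no match to any of these motifs. The Slc1a2 window held 1 NFI match and 1 E-box match, and the Fabp7 window held 1 NFI match. NFI and E-box matches were present in 46.7% and 16.3% of all promoters, RBPJ matches in 6.38%, SOX matches in 18.7% and the paired NFI form in 0.0365%. Of the other markers, S100b had 4 NFI matches, Glul had 2 NFI matches and 1 E-box match, and Gja1 and Slc1a3 had none. The windows held 3 CpGs in Gfap, 9 in Aldh1l1, 1 in Slc1a2 and 6 in Fabp7, beside a median of 7 over all promoters. These matches describe letters and are not binding sites.

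Gfap was counted 384 times in the WT-H3.3 library of 24 h and 233 times in that of 72 h, or 32.5 and 23.7 CPM. In H3.3K27M OPCs it was counted 2 times at 24 h (0.281 CPM) and 0 times at 72 h, where a count of 0 allows up to 0.383 CPM. The H3.3K27M libraries were thus both far below the WT-H3.3 libraries. From the summed counts (2 and 617), the H3.3K27M level was 0.469% of the WT-H3.3 level, with an exact 95% interval of 0.0567% to 1.70% that covers counting error only. The fitted log2 fold change was -7.56 ± 0.50 (SE), a value that depends on how 0 counts are handled and was -11.11 without the H3.3K27M library of 24 h.

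Aqp4 was at 32.6 CPM (24 h) and 28.1 CPM (72 h) in WT-H3.3 OPCs. It was at 6.61 and 7.15 CPM in H3.3K27M OPCs, so both libraries of this line lay below both of the other. The ratio of WT-H3.3 to H3.3K27M was 4.94 at 24 h and 3.93 at 72 h, and the log2 fold change was -2.14 ± 0.21 (SE, edgeR adjusted p = 1.01e-05).

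Aldh1l1 was the scarcest of the 10 genes per unit of length in WT-H3.3 OPCs, with 76 counts at 24 h and 71 at 72 h (6.43 and 7.23 CPM). In H3.3K27M OPCs it was counted 11 and 18 times (1.55 and 2.34 CPM). The libraries of the lines did not overlap, and the ratio of WT-H3.3 to H3.3K27M was 4.15 at 24 h and 3.09 at 72 h. The log2 fold change was -1.80 ± 0.34 (SE, edgeR adjusted p = 0.00126).

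Slc1a2 was the marker that rose. It was at 24.7 CPM (24 h) and 28.4 CPM (72 h) in WT-H3.3 OPCs and at 44.6 and 82.3 CPM in H3.3K27M OPCs. Both H3.3K27M libraries were higher, but the ratio to WT-H3.3 was 1.81 at 24 h and 2.90 at 72 h. The log2 fold change was 1.26 ± 0.25 (SE, edgeR adjusted p = 0.00138). Without the H3.3K27M library of 72 h it was 0.75, under the 2-fold limit, so the call rests on that library.

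The glutamate transporter Slc1a3 and the calcium binding protein S100b had adjusted p-values under 0.05 with fold changes under 2, and were not called. Slc1a3 was at 721 and 754 CPM in WT-H3.3 OPCs and at 855 and 1159 CPM in H3.3K27M OPCs (24 and 72 h), a log2 fold change of 0.45 ± 0.16 (SE, edgeR adjusted p = 0.0327). S100b was at 19.6 and 17.5 CPM in WT-H3.3 and at 25.9 and 33.6 CPM in H3.3K27M OPCs, a log2 fold change of 0.68 ± 0.19 (SE, edgeR adjusted p = 0.0115). The H3.3K27M libraries were above the WT-H3.3 libraries for both genes. Dip2a lies on the other strand of the S100b locus and had 183 to 284 counts in the OPC libraries, and whether the counting used strand is not stated, so that S100b is uncertain by this overlap.

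Fabp7, the most abundant marker, was at 2802 CPM (24 h) and 3218 CPM (72 h) in WT-H3.3 OPCs and at 2739 and 3981 CPM in H3.3K27M OPCs. The ranges overlapped, and the log2 fold change was 0.16 ± 0.18 (SE, edgeR adjusted p = 0.497). Glul was at 270 and 304 CPM in WT-H3.3 and at 273 and 323 CPM in H3.3K27M OPCs, also with overlapping ranges, and its log2 fold change was 0.05 ± 0.14 (SE). Gja1 was at 113 and 109 CPM in WT-H3.3 and at 117 and 122 CPM in H3.3K27M OPCs, with a log2 fold change of 0.10 ± 0.12 (SE). Sparcl1 was at 147 and 154 CPM in WT-H3.3 and at 130 and 138 CPM in H3.3K27M OPCs, with a log2 fold change of -0.17 ± 0.12 (SE). None of these 4 genes was called, which does not show that they were equal. The libraries of the lines did not overlap for 8 of the 10 markers, beside 76.7% of all genes tested, with both H3.3K27M libraries above in 4 and below in 4, beside 38.1% and 38.6% of genes.

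Per kilobase of exon, the order of the markers in WT-H3.3 OPCs began with Fabp7 (a mean of 2408 CPM per kb), Slc1a3 (86.4) and Glul (86.3), followed by Sparcl1 (48.3), Gja1 (35.8), S100b (12.5), Gfap (6.66), Aqp4 (5.71), Slc1a2 (2.02) and Aldh1l1 (1.51). The ranges of the neighbours Slc1a3 and Glul overlapped, as did those of Gfap and Aqp4. In H3.3K27M OPCs the first 6 places were the same, Slc1a2 (4.82) came before Aqp4 (1.29) and Aldh1l1 (0.431), and Gfap came last (0.0333). These levels assume reads spread along transcripts. The labels name a 3′ kit and a KAPA mRNA kit without saying which library used which, and with a 3′ kit the division by length would overstate short genes such as Fabp7.

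The other astrocyte and radial glia genes of the OPCs moved in both directions. Of 50 such genes, 4 lie on chromosome 8, which the study leaves out, 46 were measured and 43 passed the filter. Of these 43, 12 were lower, 9 were higher and 22 were not called, with a median log2 fold change of 0.06, beside 0.00 over all genes tested. Of all 12467 genes tested, 15% were called lower and 12.9% higher. The 3 with the lowest p-values among the lower genes were Clu, Cd44 and Id4. Clu (clusterin, a secreted chaperone of astrocytes) was at 111 and 118 CPM in WT-H3.3 and at 4.50 and 4.29 CPM in H3.3K27M OPCs (24 and 72 h), a log2 fold change of -4.70 ± 0.18 (SE). Cd44 (a hyaluronan receptor of astrocyte precursors and of many other cells) was at 307 and 277 CPM against 33.2 and 36.0 CPM, a log2 fold change of -3.08 ± 0.14. Id4 (an inhibitor of bHLH factors, induced by BMP signals) was at 67.6 and 80.7 CPM against 2.53 and 4.42 CPM, a log2 fold change of -4.40 ± 0.24. For each of these 3 genes both H3.3K27M libraries were below both WT-H3.3 libraries.

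The other 9 lower genes were Hopx (-3.90), Fgfr3 (-2.77), Ntsr2 (-2.01), Ednrb (-1.99), Id3 (-1.94), Vim (-1.92), Apoe (-1.80), Pla2g7 (-1.48) and Slc4a4 (-1.16), given as log2 fold changes. Vim encodes vimentin, an intermediate filament of radial glia and of mesenchymal cells, and it was at 3951 and 3809 CPM in WT-H3.3 and at 965 and 1090 CPM in H3.3K27M OPCs. Nes, the gene of another intermediate filament of progenitors, was at 207 and 212 CPM in WT-H3.3 and at 228 and 209 CPM in H3.3K27M OPCs and was not called.

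Among the higher genes, Nfia, Pax6 and Bcan had the lowest p-values. Nfia (a factor that starts gliogenesis) was at 394 and 422 CPM in WT-H3.3 and at 1376 and 1322 CPM in H3.3K27M OPCs, a log2 fold change of 1.73 ± 0.13 (SE). Pax6 (a neural progenitor factor) was at 4.40 and 4.07 CPM against 27.8 and 25.8 CPM, a log2 fold change of 2.65 ± 0.21. Bcan (brevican, a matrix proteoglycan of OPCs and astrocytes) was at 100.3 and 118 CPM against 276 and 293 CPM, a log2 fold change of 1.39 ± 0.13. For each of these 3 genes both H3.3K27M libraries were above both WT-H3.3 libraries. Other higher genes were Hes5 (2.36), Mfge8 (1.32), Ptprz1 (1.22), Emx2 (1.13) and Plpp3 (1.02). The progenitor genes Sox9 and Hes1 had log2 fold changes of 0.05 and -0.01 and were not called.

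**Figure D2:**
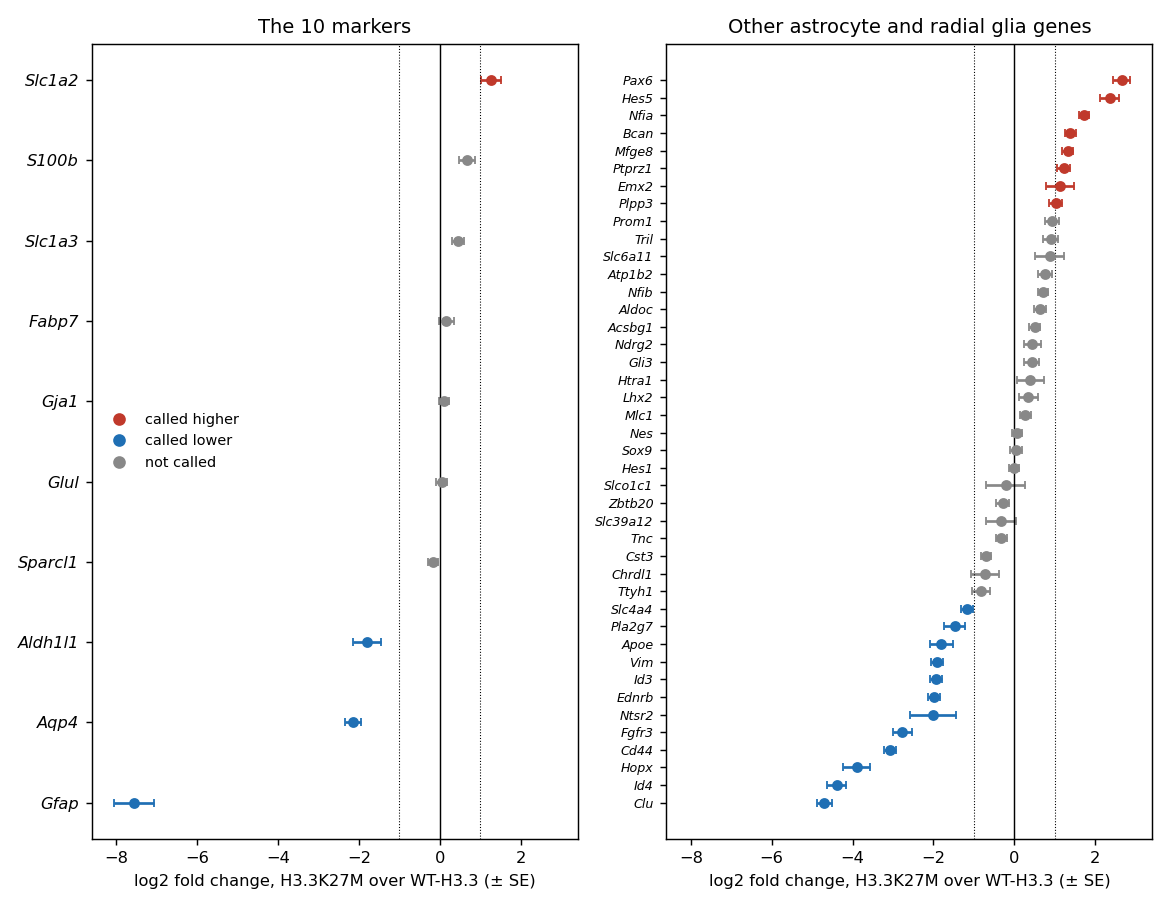
Log2 fold change of H3.3K27M over WT-H3.3 OPCs (2 libraries each) with its standard error, for the 10 markers on the left and for 42 of the 43 other astrocyte and radial glia genes tested on the right. Red and blue points were called higher and lower, grey points were not called, and dotted lines mark a fold of 2. Gfap at -7.56 is the lowest of the genes drawn, and Pax6 at 2.65 the highest.

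Markers of other cell types moved with these differences. The calls of each list below stand beside 15% of all 12467 genes tested called lower and 12.9% called higher. The label of the cells was met in part: Olig2 and Olig1, factors of the oligodendrocyte lineage, were at 274 to 320 and 147 to 164 CPM in WT-H3.3 OPCs and at 974 to 1001 and 581 to 664 CPM in H3.3K27M OPCs. Pdgfra, the receptor that defines OPCs, was at 15.05 and 23.1 CPM in WT-H3.3 and at 0.562 and 0.780 CPM in H3.3K27M OPCs, Sox10 was at 0.141 to 3.36 CPM in the 4 libraries, and Mag had 0 counts in all of them. Of the 12 oligodendrocyte lineage genes measured, 9 were tested, 5 were higher (among them Olig1, Olig2, Nkx2-2 and Cspg4) and 2 lower (Pdgfra and Sox10) in H3.3K27M OPCs, and the list summed to 536 to 555 CPM in WT-H3.3 and 1737 to 1914 CPM in H3.3K27M libraries.

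Fibroblast genes were lower in H3.3K27M OPCs together with Gfap, Aqp4, Aldh1l1, Cd44 and Vim. The calls of this and the next lists again stand beside 15% of all genes tested called lower and 12.9% called higher. Of 10 measured, 9 were tested, 8 were lower and 1, Thy1, which neurons express too, was higher, and the list summed to 573 to 655 CPM in WT-H3.3 and 26.3 to 30.8 CPM in H3.3K27M libraries. Its most abundant genes were Col3a1 (203 and 236 CPM against 4.22 and 2.60 CPM), Col1a1 (155 and 165 CPM against 4.36 and 2.34 CPM) and Dcn (94.7 and 96.5 CPM against 2.53 and 1.69 CPM). Neuron genes went in both directions. Of 11 measured, 10 were tested, 3 were higher (Map2, Syt1 and Rbfox3) and 6 lower. Among the lower genes Stmn2, a microtubule regulator of growing axons, was at 154 and 112 CPM in WT-H3.3 and at 0.844 and 0.520 CPM in H3.3K27M OPCs. The other lower genes were Gad1 (-3.07), Snap25 (-2.51), Elavl3 (-1.33), Dcx (-1.31) and Nefl (-1.05), given as log2 fold changes. Map2 was at 552 and 573 CPM in WT-H3.3 and at 1557 and 1658 CPM in H3.3K27M OPCs, Gap43, which was not called, at 176 and 255 against 349.6 and 461 CPM, and Syt1 at 10.5 and 14.2 against 191 and 275 CPM. Of the endoderm list, 6 of 8 measured genes were tested and all 6 were lower, led in level by Lama1 (52.0 and 77.6 CPM against 2.95 and 1.95 CPM), Dab2 and Gata6, with sums of 116 to 162 CPM in WT-H3.3 and 16.4 to 21.1 CPM in H3.3K27M libraries.

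Of the pluripotency list, 9 genes were measured, 5 of them had 0 counts in all 4 OPC libraries, 2 were lower (Klf4 and Tbx3) and 1 higher (Esrrb), and Pou5f1 was at 0. The endothelial list summed to 0.520 to 12.1 CPM over the 4 libraries, with Kdr, Pecam1 and Tek as its measured genes and Kdr as the 1 called lower. The ependymal list summed to 19.6 to 29.6 CPM, mostly from Foxj1, with Otx2 called lower and Folr1 not tested. Microglia genes were absent or nearly so, with sums of at most 1.10 CPM from Csf1r and Aif1, and Cx3cr1 and C1qa were at 0. The part of other cell types in the marker differences was not tested.

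**Figure D3:**
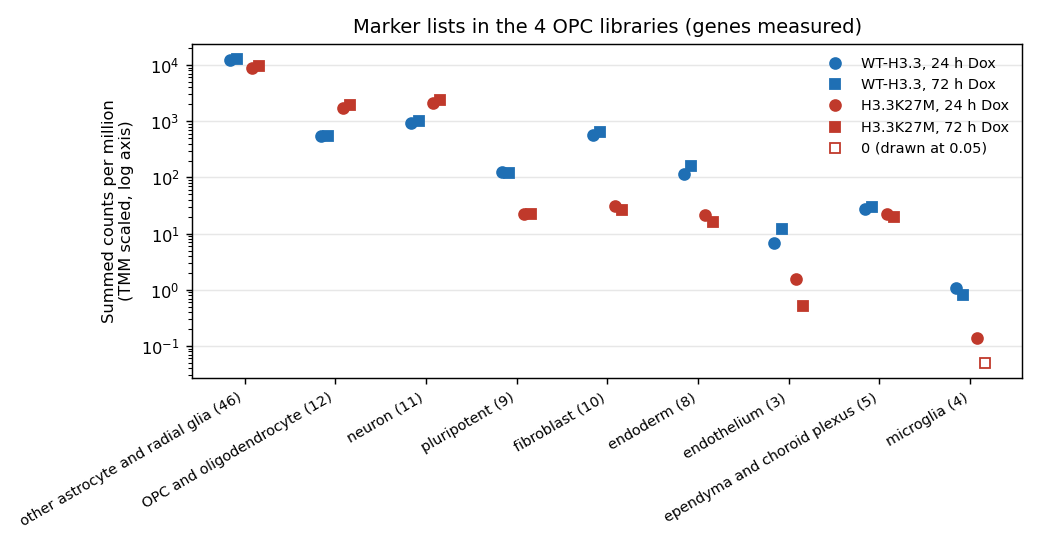
Summed CPM of each marker list in the 4 OPC libraries on a log axis, with the number of genes measured in brackets, WT-H3.3 in blue and H3.3K27M in red, circles for 24 h and squares for 72 h of Dox. The fibroblast list fell from at least 573 to at most 30.8 CPM, while the oligodendrocyte lineage list was higher in both H3.3K27M libraries.

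The H3.3K27M lines of the other cell states were compared in the same way. In ESCs, Slc1a3, Aldh1l1, Gja1 and Glul passed the filter. The other 6 markers were at or near 0, and over all 32 ESC libraries Gfap had 119 counts (at most 1.01 CPM), Sparcl1 82, Slc1a2 4, S100b 3, and Aqp4 and Fabp7 1 each. None of the 4 tested markers was called in H3.3K27M, in H3.3K27L or in GSK343-treated ESCs, averaged over the 4 times, beside 0.0143% (0.00714% higher and 0.00714% lower), 3.43% (0.628% higher and 2.8% lower) and 0% of 14012 genes called. The 2 genes called with H3.3K27M were 1 higher and 1 lower. A block for the replicate number gave 23 called genes and DESeq2 gave 9, 8 of them higher, and neither called a marker. For GSK343, 678 genes had an unadjusted p under 0.05 with edgeR, and DESeq2 called 0.

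Gja1, the connexin of astrocyte and ESC gap junctions, came closest in ESCs. In H3.3K27M ESCs it ran from 22.9 to 96.5 CPM (median 58.6, n = 8), and in WT-H3.3 ESCs from 86.1 to 135 CPM (median 106, n = 8), so that the ranges overlapped. The log2 fold change was -0.89 ± 0.24 (SE), with an edgeR adjusted p of 0.159. At each time and replicate number the H3.3K27M library was below the WT-H3.3 library of the same number (8 of 8). The share of all genes that were below in all 8 was not counted. A fit blocked on the replicate number gave a log2 fold change of -0.94 (edgeR adjusted p = 0.0724), which was not called. The H3.3K27M libraries of replicate 2 were at 28.2, 22.9, 28.2 and 57.5 CPM at 4, 8, 24 and 72 h, all below the lowest WT-H3.3 library. Those of replicate 1 were at 96.5, 91.7, 59.7 and 79.5 CPM, and the libraries of 24 and 72 h were below the lowest WT-H3.3 library as well. Leaving out the replicate 1 library of 4 h or of 8 h made the gene a call, at a log2 fold change of -1.17 or -1.21. Against WT-H3.3, its log2 fold change was 0.07 ± 0.25 in H3.3K27L and 0.04 ± 0.24 in GSK343-treated ESCs, and the differences between these changes were not tested. The libraries left out touch the whole comparison, since without the same 4 h or 8 h library 82 or 131 genes were called, and without the replicate 1 library of 24 h 23 genes were called.

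Glul ran from 99.8 to 186 CPM in H3.3K27M and from 140 to 184 CPM in WT-H3.3 ESCs, with a log2 fold change of -0.18 ± 0.11 (SE). Slc1a3 ran from 4.74 to 9.50 CPM and from 5.86 to 7.11 CPM, and its log2 fold change was 0.16 ± 0.17. Aldh1l1 ran from 11.6 to 23.4 CPM and from 10.9 to 20.4 CPM, and its log2 fold change was 0.30 ± 0.18. The ranges of the 2 lines overlapped for all 3 genes.

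**Figure D4:**
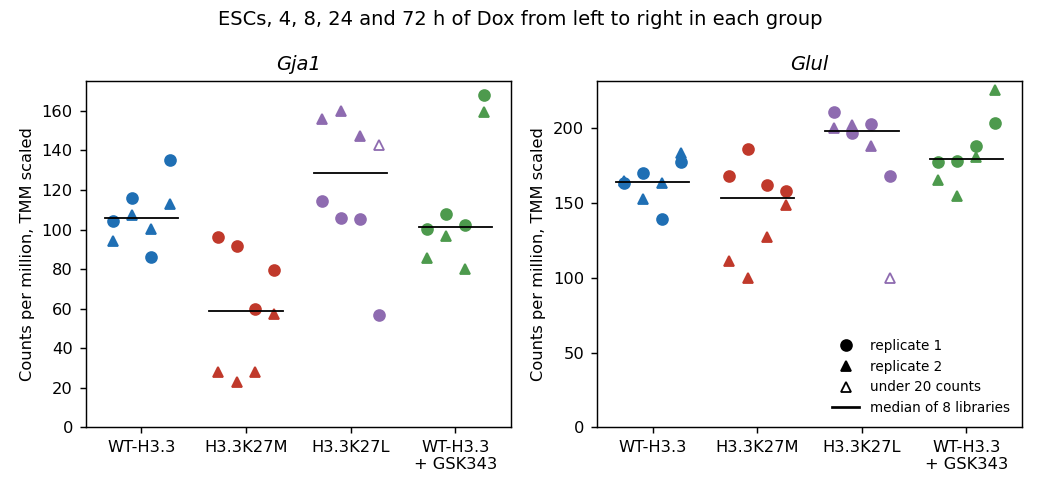
Levels of Gja1 and Glul in the 32 ESC libraries, in CPM scaled by TMM, by group and from 4 to 72 h of Dox within a group. Circles are replicate 1, triangles replicate 2, lines the medians of 8 libraries, and open symbols libraries with under 20 counts of the gene. The H3.3K27M libraries of Gja1 ran from 22.9 to 96.5 CPM and those of WT-H3.3 from 86.1 to 135 CPM.

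Whether the H3.3K27M effect differed between OPCs and ESCs was tested in 1 model of both lines at 24 and 72 h (8 ESC, 4 RA and 4 OPC libraries). Gfap, with a fitted difference of -7.63 ± 1.32 on the log2 scale (SE), was the 1 marker called, beside 7.44% of 15740 genes, 2.43% with a higher and 5.01% with a lower effect in OPCs. In ESCs Gfap was at 0.236 to 0.775 CPM in the H3.3K27M and at 0.126 to 1.01 CPM in the WT-H3.3 libraries of these times, from 1 to 11 counts each, a level at which a fall would hardly be seen, so that the fitted difference restates the fall in OPCs and does not show that the effect depends on cell state. For Aldh1l1 the difference was -2.07 ± 0.73 (adjusted p = 0.113), for Gja1 1.06 ± 0.54 (adjusted p = 0.304), and for Slc1a3, Sparcl1 and Glul 0.18 ± 0.49, -0.53 ± 0.75 and 0.21 ± 0.30. When the replicate number was a block within each cell state, Aldh1l1 (-2.09) and Gja1 (1.10) were called as well. Aqp4, Fabp7, S100b and Slc1a2 had 0 or 1 counts in each ESC library of this model and give no difference.

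The name of neural progenitors was met in part by the RA-treated cells. Pax6 was at 11.5 to 29.0 CPM at 24 h and 24.5 to 45.3 CPM at 72 h, against at most 4.11 CPM in ESCs. Nes was at 134 to 395 and 23.0 to 76.1 CPM, against 27.1 to 97.8 CPM. The neuron list summed to 60.7 to 110 CPM, against 231 to 563 CPM in ESCs, and the endoderm list to 648 to 6578 against 40.7 to 157 CPM. In RA-treated cells, 5 markers passed the filter, namely Slc1a3, Aldh1l1, Gja1, Sparcl1 and Glul. With the Dox times pooled, no marker and 0% of 12233 genes were called for H3.3K27M or for H3.3K27L. At an unadjusted p under 0.05 there were 14 and 185 genes with edgeR, and DESeq2 called 0 and 5. The pooled test takes the difference between 24 and 72 h as spread, so that its lack of calls says nothing about these markers. With Dox time as a block, 2 and 445 genes were called, none of them a marker. With the times pooled, the log2 fold changes of H3.3K27M were -0.36 ± 0.39 for Glul, -0.25 ± 0.60 for Gja1 and 0.09 ± 0.73 for Slc1a3 (SE). With the block they were -0.37 ± 0.19, -0.20 ± 0.18 and 0.25 ± 0.25. The highest Glul values were those of the H3.3K27L libraries (571 and 567 CPM at 24 and 72 h), above WT-H3.3 (406 and 325 CPM) and H3.3K27M (246 and 323 CPM). The log2 fold change of Glul in H3.3K27L against WT-H3.3 was 0.64 ± 0.39 with the times pooled. It was 0.63 ± 0.19 with the block (edgeR adjusted p = 0.0651), which was not called.

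Whether the RA-treated libraries of 24 and 72 h of Dox had the same time in RA is not given in the sources used here, so that Dox time and differentiation time cannot be told apart. Between 72 and 24 h, 42.9% of genes were called, 20% higher and 22.9% lower, and among the 5 markers Slc1a3 was higher and Aldh1l1 lower. Slc1a3 went from 20.9 to 75.0 CPM in WT-H3.3, from 34.1 to 67.9 CPM in H3.3K27M and from 28.1 to 40.7 CPM in H3.3K27L cells, higher at 72 h in all 3 lines, with a log2 fold change of 1.10 ± 0.21 (SE, edgeR adjusted p = 0.000484). Leaving out WT-H3.3 at 24 h gave 0.78 and leaving out WT-H3.3 at 72 h gave 0.83, both under the 2-fold limit. Aldh1l1 went from 4.30 CPM to 0 in WT-H3.3, from 2.73 to 1.83 CPM in H3.3K27M and from 6.69 CPM to 0 in H3.3K27L cells, with a log2 fold change of -2.66 ± 0.81 (SE, edgeR adjusted p = 0.0109). Its call was lost without either H3.3K27L library, at -1.64 without that of 24 h and -1.59 without that of 72 h. Gja1 went from 710 to 367 CPM, from 538 to 367 CPM and from 872 to 428 CPM in the same lines, lower at 72 h in all 3, and its log2 fold change of -0.84 ± 0.15 (adjusted p = 0.000242) was under 2-fold. The libraries of 72 h held 2239137 to 3268238 counts and those of 24 h at least 5050115.

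Across cell states the markers differed in where they were highest. In WT-H3.3 cells at 24 and 72 h of Dox, 8 of the 10 markers were called between OPCs and ESCs, 7 of them higher in OPCs, beside 63.9% of 15740 genes called, 29.7% higher and 34.2% lower in OPCs. Between OPCs and RA-treated cells 8 were called, 7 of them higher in OPCs, beside 36.1% of genes called, 14% higher and 22.1% lower. The cell states come from separate tables and the library kit of each is not given, so that cell state and table cannot be told apart. Aqp4, Fabp7, S100b and Slc1a2 passed the filter through the OPC libraries, and Gfap through those of WT-H3.3, where they are high. Their part in these counts is a description.

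Fabp7 had 64748 counts in the 2 WT-H3.3 OPC libraries, 0 in the 4 ESC libraries and 2 in the 2 RA libraries, and its share of counts was at least 41116-fold higher in OPCs than in ESCs (3 counts over the ESC libraries as the floor). Aqp4 had 662, 0 and 1 counts, and was at least 420.4-fold higher than in ESCs. S100b had 404, 1 and 0 counts, and Slc1a2 had 571, 1 and 7. For S100b the ratio to ESCs was 770 (exact 95% interval 137 to 30473, counting error only) and for Slc1a2 it was 1088 (194 to 43039). These 4 genes were thus at or near 0 in ESCs.

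Slc1a3 was lowest in ESCs (5.86 to 6.92 CPM), higher in RA-treated cells (20.9 to 75.0 CPM) and highest in OPCs (721 to 754 CPM). RA-treated cells and OPCs were made by separate protocols, so this order of levels is not a course in time. Its log2 fold change was 6.92 ± 0.38 between OPCs and ESCs (SE, edgeR adjusted p = 5.38e-09) and 2.66 ± 0.34 between RA-treated cells and ESCs (adjusted p = 3.38e-05). Sparcl1 was 8.69 ± 0.51 higher in OPCs than in ESCs on the log2 scale (edgeR adjusted p = 9.24e-09). Gfap was 5.93 ± 0.67 higher. It passed the filter only through the WT-H3.3 OPC libraries, so that this value is a description. Gfap did not differ between RA-treated cells and ESCs beyond the error (0.37 ± 1.02). For Slc1a3 and Sparcl1 the OPC libraries lay above all libraries of the other states, and the share of all genes that did so was not counted. Of 15740 genes, 29.7% were called higher in OPCs than in ESCs and 14% higher than in RA-treated cells.

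Gja1, Glul and Aldh1l1 did not have the order of levels seen for Slc1a3. Gja1 was highest in RA-treated cells (367 to 710 CPM), at a log2 fold change of -2.08 ± 0.45 in OPCs against RA-treated cells (adjusted p = 0.00299) and of 2.18 ± 0.36 in RA-treated cells against ESCs (adjusted p = 0.000307), while OPCs and ESCs differed by 0.09 ± 0.38. RA-treated libraries, of all lines, also held endoderm genes summing to 648 to 6578 CPM, against 40.7 to 157 CPM in ESCs, and Pdgfra, which mesodermal cells express too, at 70.5 to 335 CPM, against at most 3.37 CPM in ESCs, and their part in the Gja1 level was not tested. Glul was high in all 3 states and was not called in any of these comparisons (0.85 ± 0.21 for OPCs against ESCs), but RLE size factors (1.02), DESeq2 (1.02) and the replicate block (1.04) each called it higher in RA-treated cells than in ESCs. Aldh1l1 was higher in ESCs than in OPCs, with a log2 fold change of -1.23 ± 0.51 (adjusted p = 0.0433), a call that was lost when any 1 of the 12 ESC and OPC libraries of the model was left out, at values from -1.30 to -1.12. Between OPCs and RA-treated cells its log2 fold change of 1.52 ± 0.64 was not called (adjusted p = 0.0724), while DESeq2 (1.49, adjusted p = 0.0132) and edgeR with no filter on low counts (1.58, adjusted p = 0.0309) called it. Between RA-treated cells and ESCs, 6 of 10 markers were called, 5 higher and 1 lower, beside 35.7% of genes called, 19.7% higher and 16% lower. Of these 6, Fabp7 (2 counts in RA-treated cells and 0 in ESCs) and Slc1a2 (7 and 1) were near 0 in both states. They are not read as higher, which leaves Slc1a3, Gja1 and Sparcl1 higher and Aldh1l1 lower. Sparcl1 rests on 14 and 2 counts in the RA libraries of 24 and 72 h, against 15 over the 4 ESC libraries. Its log2 fold change of 2.37 fell to 1.18 without the RA library of 24 h. Aldh1l1 had 22 and 0 counts in the same RA libraries. Without the WT-H3.3 RA library of 24 h, 4 markers were called.

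**Figure D5:**
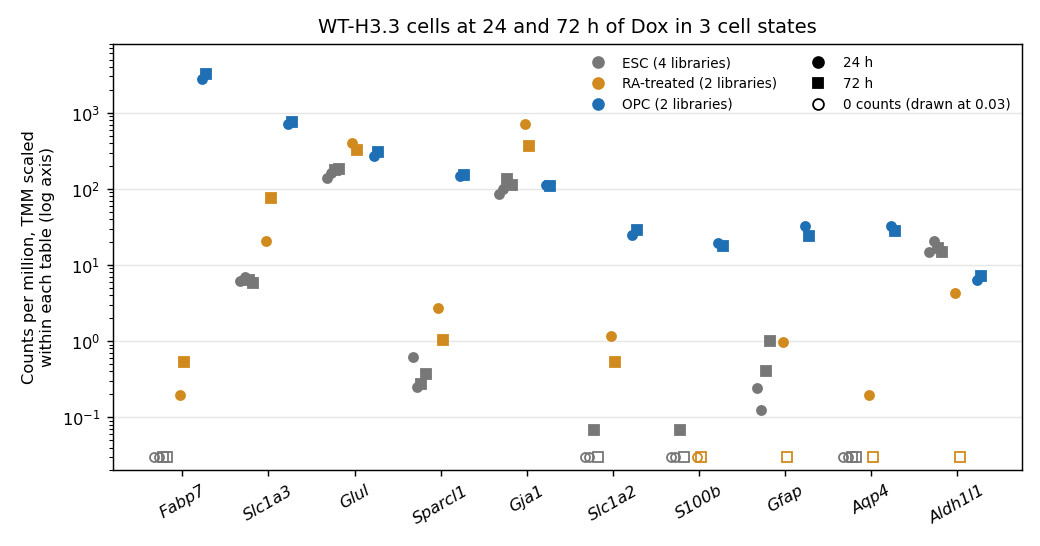
Levels of the 10 markers in WT-H3.3 cells at 24 h (circles) and 72 h (squares) of Dox, with ESCs in grey (4 libraries), RA-treated cells in orange (2) and OPCs in blue (2), in CPM scaled by TMM within each table on a log axis. Open symbols are libraries with 0 counts. Fabp7 was at 2802 and 3218 CPM in OPCs and at 0 in ESCs, while Gja1 was highest in RA-treated cells.

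The genes whose levels followed Fabp7 most closely over the 42 RNA libraries were Gabra2, Mlc1 and 3110035E14Rik, with a Pearson r of 0.995 each (log2 of CPM plus 0.5, among the 13570 genes whose mean reached 1 CPM). Those that followed Slc1a3 most closely were Mageh1 (0.981), Trib2 (0.978) and Mxra8 (0.977). These coefficients are a description, since the points share library, table and depth and the 4 OPC libraries stand apart from the other 38. Gabra2 was at 151 to 260 CPM in OPCs and at most 0.586 CPM elsewhere, and Mlc1, a membrane protein of astrocyte endfeet, at 141 to 190 CPM and at most 0.275 CPM. Mlc1 was not called between the OPC lines (log2 fold change 0.27 ± 0.14).

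Depth and the H3.3 genes were as follows. Total counts ran from 7499258 to 12387113 in OPC, from 2239137 to 22269533 in RA-treated and from 68378 to 21161392 in ESC libraries, and 2 ESC libraries (H3.3K27L at 72 h and GSK343 at 8 h, both replicate 2) were under 2000000. H3f3a was at 66.7 to 69.6 CPM in H3.3K27M and 24.7 to 26.98 CPM in WT-H3.3 OPCs, and H3f3b at 1071 to 1366 and 1304 to 1518 CPM. The tables do not separate the transgene from these genes, so they check no label.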

How the data were processed

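Single-end RNA-seq reads were aligned by the authors to mm9 with STAR 2.7.1, and the deposited files hold raw counts of each gene, in a table each for ESCs, RA-treated cells and OPCs (42 libraries). The counter, its annotation and its use of strand are not given in the sources used here. Of the 55471 genes, 22882 could not be matched to the NCBIM37 annotation and were kept, placed on chromosome 8 or not by their neighbours in the tables. Genes of chromosome 8 (5.85% of counts) were left out, as in the methods of the study. Human and ChIP-seq data were not analysed here.

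Counts were tested with the quasi-likelihood test of edgeR 4.0.16 (TMM, filterByExpr, Benjamini-Hochberg adjustment), with a mean per line in OPCs and RA-treated cells (plus Dox time where times were compared), per group and time in ESCs, and per cell state and line across states, in R 4.3.3. Levels are CPM scaled by TMM within a table. The alternatives were DESeq2 1.42.0, RLE size factors, no filter on low counts, chromosome 8 kept, a block for replicate or Dox time, plain CPM, and leaving out each library. A fit without the 2 shallow ESC libraries was added after seeing the data. Tables were handled in pandas 2.3.3 and NumPy 2.4.6 (Python 3.11.15), exact intervals came from SciPy 1.17.1, and plots from Matplotlib 3.10.9.

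The markers, the gene lists and the tests were chosen with earlier results of these data known. Named genes are the 10 markers, the 3 other astrocyte genes of lowest p in each direction, the 3 most abundant genes of each marker list in OPCs, the 3 genes most like Fabp7 and Slc1a3, and H3f3a and H3f3b. Single values of 2 genes of these lists are not reported here. The remaining called genes of the astrocyte list, Nes, Sox9, Hes1, Pdgfra, Sox10, Mag, Pou5f1 and the lower neuron genes were named after their values were seen.

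Replicate numbers pair the ESC libraries by the check used, since the differences between replicates correlated between WT-H3.3 and H3.3K27M at 0.361, 0.538, 0.386 and 0.411 (4, 8, 24 and 72 h, across 14012 genes). The methods describe replicates as repeats made some weeks from each other. In OPCs the single coefficient was 0.122 across 12467 genes, where the number is also the Dox time. No OPC libraries were copies, with a chi-square per gene of at least 9.68 between any 2. With counting error only, 3 counts in an OPC library correspond to 0.258 to 0.425 CPM.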

Additional observations from a re-analysis of the deposited data

Results flagged for a closer look

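Gfap was singled out because its H3.3K27M effect differed between OPCs and ESCs by a test of the difference itself, at -7.63 on the log2 scale. With 1 to 11 counts of Gfap in each ESC library of that model, the value restates the fall in OPCs and does not show that the effect depends on cell state. Glul in H3.3K27L ESCs was singled out because 1 of the 8 libraries, replicate 2 at 72 h, lay at 100.02 CPM, apart from the others (median 199 CPM). This value rests on 7 counts in the library of 68378 counts. Of 20 groups of 8 libraries examined for such a library 1 was found, and chance gives about 1 in 20.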

How the results depend on the processing

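In OPCs 4 markers were called under every whole-table alternative, among 3033 of 12467 genes (DESeq2) to 3969 of 22881 genes (no filter on low counts). In the main fit 27.9% of genes were called. Gfap is among these 4 markers, and where the filter was used its part is a description. Leaving out a library gave 3099 to 3655 genes and 3 to 4 markers. The remaining limits are low counts of Gfap and Aldh1l1 and 2 libraries per line.

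With the replicate number (also the Dox time) as a block, 3507 genes were called in OPCs. With a replicate block in ESCs, 23 genes were called for H3.3K27M, and with one within cell state the H3.3K27M effect differed between OPCs and ESCs for 2469 genes and 3 markers, and Gja1 turned to -0.11 between OPCs and ESCs. Between RA-treated cells and ESCs the block within cell state made Glul a call (1.04), and Fabp7, at 2 and 0 counts, lost its call.

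For H3.3K27M in ESCs, DESeq2 called 9 genes, no filter 152 and a fit without the 2 shallow libraries 0. In RA-treated cells the Dox time block called 2 genes for H3.3K27M and 445 for H3.3K27L, where DESeq2 called 5 and no filter 7. No filter called 750 genes for H3.3K27L and 26 for GSK343 in ESCs, and 1 marker between RA times. DESeq2 and no filter each called 2 markers for the difference between OPCs and ESCs. Values near 0 changed sign: Aldh1l1 for H3.3K27M in RA-treated cells (0.033 with DESeq2, 0.0061 with chromosome 8 kept), Glul between RA times (-0.0063 with no line term, -0.083 with no filter), Gja1 for H3.3K27L in ESCs without the shallow libraries (-0.011), and Slc1a3 and Gja1 for GSK343 with no filter (-0.015 and -0.012). The cause was not tested.

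Leaving out 1 library gave 0 genes for H3.3K27M and H3.3K27L in RA-treated cells and for GSK343, 5009 to 5522 genes and 1 to 3 markers between RA times, 0 to 131 genes and 0 to 1 markers for H3.3K27M and 117 to 657 genes for H3.3K27L in ESCs (117 without H3.3K27L at 72 h, replicate 1). Across states it gave 9040 to 10867 genes and 7 to 8 markers (OPCs against ESCs), 2917 to 7903 and 8 to 9 (OPCs against RA-treated cells; 2944 and 3425 without the WT-H3.3 OPC library of 24 or 72 h, 2917 without the WT-H3.3 RA library of 24 h), 4682 to 6749 and 4 to 7 (RA-treated cells against ESCs), and 472 to 1493 and 1 to 2 (the difference between OPCs and ESCs, 472 to 626 without an OPC library).

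Uncalled log2 fold changes that changed sign when 1 library was left out had these ranges. In OPCs they were -0.13 to 0.41 (Fabp7) and -0.071 to 0.17 (Glul). For H3.3K27M in RA-treated cells they were -0.55 to 1.28 (Slc1a3), -0.91 to 7.13 (Aldh1l1) and -0.67 to 0.31 (Gja1), and for H3.3K27L -1.12 to 0.71 (Slc1a3), -7.04 to 7.72 (Aldh1l1), -0.34 to 0.83 (Gja1) and -0.69 to 0.35 (Sparcl1). Between RA times Glul ran from -0.18 to 0.23. For H3.3K27L in ESCs they were -1.97 to 0.26 (Slc1a3) and -2.25 to 0.25 (Aldh1l1), with the low ends reached without the replicate 1 library of 72 h, which leaves the shallow one for that time, and -0.011 to 0.31 (Gja1). For GSK343 they were -0.23 to 0.14 (Slc1a3) and -0.011 to 0.079 (Gja1). Across states they were -0.38 to 0.18 (Glul, OPCs against RA-treated cells) and -5.12 to 1.07 (Gfap, RA-treated cells against ESCs), and for the difference between OPCs and ESCs -0.081 to 0.38 (Slc1a3) and -0.82 to 0.71 (Sparcl1).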
